A study of Mus musculus with 2 samples.

Results

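The cells described here are C1q tissue macrophages of the mouse omentum, a fold of visceral fat that carries lymphoid clusters known as milky spots. They were chosen by a gate on transcripts counted as unique molecular identifiers (UMIs), in cells with 200 to 7500 detected genes. A member held UMIs of 2 or more of *C1qa*, *C1qb* and *C1qc*, and of *Csf1r* or *Adgre1*. It held UMIs of fewer than 2 of *Gata6*, *Alox15*, *Prg4* and *Saa3*, and none of *Cd209a*, *Flt3*, *Cd79a* or *Cd3e*. The gate took 243 of 14414 cells, that is 125 of 8680 cells of the WT library and 118 of 5734 cells of the *Postn*-DTR library.

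The series asked how omental leukocytes differ once *Postn*-expressing fibroblastic stromal cells are removed. *Postn*-DTR mice were heterozygous for a diphtheria toxin receptor inserted into the *Postn* gene of C57BL/6 zygotes, so that diphtheria toxin (DT) acts on any cell that uses this promoter. WT mice lacked the receptor, and both groups received DT and were taken 5 days later, so no library comes from mice without DT. Each library pooled the omenta of the mice of its group, and the age of the mice is not given in the sources used here. With 1 library per group no difference has a replicate check, and all intervals below are 95% intervals that cover counting error only.

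C1q is the recognition molecule of the classical complement pathway, and in tissues it is made mainly by macrophages. Macrophages of fat and serosal tissues include cells with the hyaluronan receptor LYVE1 and the folate receptor FOLR2, which carry little MHC class II, and cells with more MHC class II and the chemokine receptor CCR2, many of which come from monocytes. MHC class II molecules present peptides to CD4 T cells, with the help of the invariant chain CD74 and the peptide editor H2-DM, and their genes are switched on together by the coactivator CIITA.

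Of the macrophage genes that the gate did not use, *Lyz2* was present in every member. *Lyz2*, which encodes lysozyme, was detected in all 125 WT and all 118 *Postn*-DTR members, at mean levels of 162 and 109.5 UMIs per 10000. Cells with a *Cd3e* UMI and no C1q gene, which should lack it, gave 8.94% and 7.97%, at levels of 0.93 and 1.07. *Cd68*, a lysosomal glycoprotein, was found in 91 WT and 65 *Postn*-DTR members, and the receptors *Fcgr1* and *Mertk* in 32 and 32 and in 38 and 36. Of the markers of the label, *Lyve1* was detected in 50.4% of the WT members (95% exact interval 41.3 to 59.5) and 50% of the *Postn*-DTR members (40.7 to 59.3), *Folr2* in 57.6% and 53.4%, and *Mrc1*, the mannose receptor, in 74.4% and 72.0%. The near-equal *Mrc1* shares depended on depth. With each cell thinned to the same number of UMIs, *Mrc1* was found in 40.7% of WT members (31.7 to 50.1). In *Postn*-DTR members the thinned share was 62.1% (51.0 to 72.3). The thinned *Folr2* shares were 48.3% and 48.3%. Without thinning, cells with a *Cd3e* UMI gave shares of at most 1.59% for *Lyve1*, *Folr2* and *Mrc1*. The gate therefore also held many cells without a *Lyve1* UMI, which are described separately below.

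The genes of the gate chose the cells and are given as a description. Mean levels were 33.7 and 29.7 UMIs per 10000 for *C1qa* in WT and *Postn*-DTR, 51.9 and 47.1 for *C1qb*, 31.7 and 30.8 for *C1qc*, and 8.02 and 8.15 for *Csf1r*. Just inside the gate, 6 WT and 12 *Postn*-DTR members held only 2 C1q genes, with a *C1qb* level of 10.3 and 17.1. Just outside it, 16 and 19 cells held 1 C1q gene and met every other condition, with a *C1qb* level of 1.64 and 5.32. At the other edge, 15 WT and 45 *Postn*-DTR members held 1 of *Gata6*, *Alox15*, *Prg4* and *Saa3*, and 14 and 18 cells just outside held 2 of them. *Saa3*, an acute-phase serum amyloid gene, was at 73.8 UMIs per 10000 in those 45 cells and at 148 in the 18 cells outside. *Alox15*, *Cd209a*, *Flt3*, *Cd79a* and *Cd3e* had 0 UMIs in the members.

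Members were shallower in *Postn*-DTR, with a median of 3309 UMIs and 1347.5 genes, than in WT, with 6310 UMIs and 2064 genes, whereas over all cells the order was opposite (8456 and 5618 UMIs). No member had more than 25% mitochondrial UMIs. Of the 65 cell barcodes that the libraries share, 1 lay among the WT and 2 among the *Postn*-DTR members. Doublet calling marked 98 WT and 73 *Postn*-DTR cells in all, and of the members 0 and 1.

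Members made up 1.44% of WT cells (1.2 to 1.71) and 2.06% of *Postn*-DTR cells (1.71 to 2.46), a ratio of 1.43 (1.11 to 1.83). This ratio depended on the gate, on the depth of the cells and on what the members were counted against. With the gate applied to cells thinned to 2000 UMIs, the shares were 1.24% and 1.40%, a ratio of 1.13 (0.841 to 1.52). Among cells with a *Ptprc* UMI, the gene of the leukocyte antigen CD45, the shares were 1.27% and 1.29%, a ratio of 1.02 (0.736 to 1.40). Outside plasma cell and neutrophil gates, which held 1527 and 345 WT cells but 2859 and 1036 *Postn*-DTR cells, the shares were 1.77% and 5.62%, a ratio of 3.17 (2.47 to 4.08). A stricter gate, with all 3 C1q genes and both *Csf1r* and *Adgre1*, gave 0.714% and 0.680%, a ratio of 0.952 (0.639 to 1.42). Counting only members with no UMI of *Gata6*, *Alox15*, *Prg4* and *Saa3*, an alternative chosen after the values were seen, gave 1.27% in both libraries and a ratio of 1.0 (0.749 to 1.35).

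**Figure D1:**
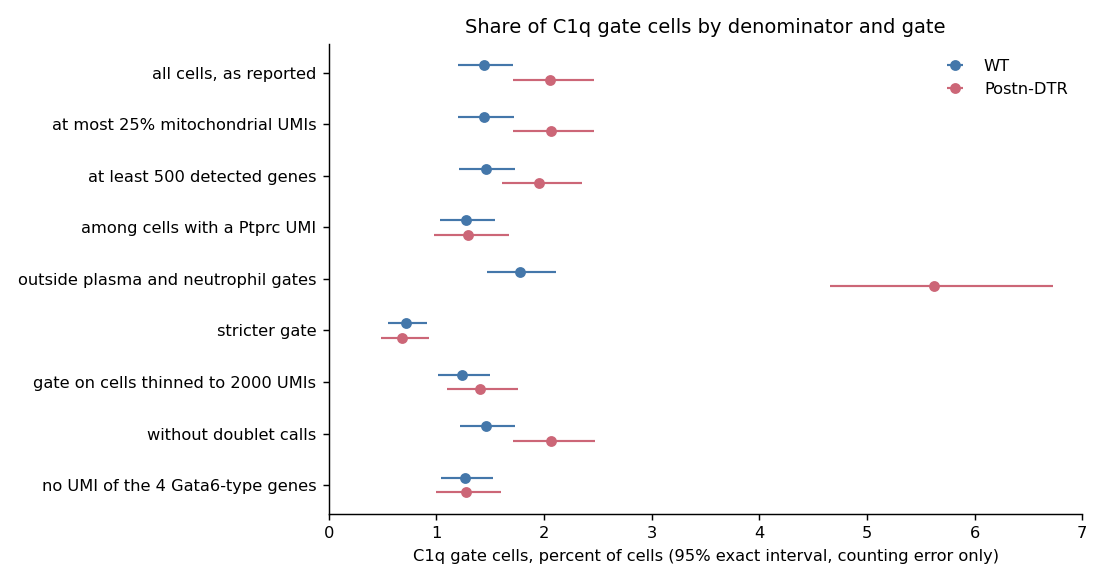
Share of C1q gate cells in each library (horizontal axis, percent of cells) under the gate as reported and under each alternative denominator, filter or gate. Points are the shares and bars 95% exact intervals, and the libraries separate most when plasma cell and neutrophil gates are left out of the denominator (1.77% against 5.62%).

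The members differed among themselves in the same way in both libraries, along *Lyve1* and MHC class II. In WT, the 63 members with a *Lyve1* UMI had a mean of 102 UMIs per 10000 of *Cd74*, and the 62 without had 332. In *Postn*-DTR the 59 and 59 members had 25.1 and 99.2. Other receptor and lectin genes did not all follow *Lyve1*. *Folr2* was at 13.8 in WT members with a *Lyve1* UMI and 0.77 in those without, and at 7.36 and 2.04 in *Postn*-DTR. *Fcna*, which encodes the lectin ficolin A, was at 31.0 and 1.54 in WT and at 32.8 and 9.34 in *Postn*-DTR. *Cd163*, the hemoglobin scavenger receptor, was at 3.37 and 0.13 in WT and at 3.54 and 0.35 in *Postn*-DTR. The lectin genes *Mgl2*, at 1.81 and 1.99 in WT and 0.045 and 0.199 in *Postn*-DTR, and *Clec10a*, at 1.18 and 1.6 in WT and 7.17 and 4.01 in *Postn*-DTR, were not higher with *Lyve1* in both libraries. The members with a *Lyve1* UMI were also the shallower ones, with medians of 4724 against 10011 UMIs in WT and 2860 against 4369 in *Postn*-DTR.

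A smaller share of *Postn*-DTR members held a *Ccr2* UMI. It was detected in 67 of 125 WT members, or 53.6% (44.5 to 62.6), and in 26 of 118 *Postn*-DTR members, or 22.0% (14.9 to 30.6). With each cell thinned to 2000 UMIs, which left out 7 WT and 31 *Postn*-DTR members, the shares were 44.9% and 24.1%. Cells with a *Cd3e* UMI, many of which express the receptor, gave 29.0% and 28.5%, so this class gives no background for *Ccr2*. Members with both *Lyve1* and *Ccr2* made up 13.6% in WT and 4.24% in *Postn*-DTR, and members with neither 9.60% (5.06 to 16.2) and 32.2% (23.9 to 41.4). Thinned to 2000 UMIs, *Lyve1* was found in 43.2% and 35.6%. *Timd4*, a receptor of long-lived resident macrophages, was found in only 7 WT and 3 *Postn*-DTR members, and *Ly6c2*, a gene of classical monocytes that T cells also use, in 7 and 10.

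Next, gene expression was compared between the members of the libraries. A gene's level was the mean over members of its UMIs per 10000, and a gene was called higher or lower where the ratio of levels, with 0.05 added to each, was 2-fold or more. Of 3790 genes that totalled 50 or more UMIs across the libraries and were detected in 10 or more members, 164 were higher in *Postn*-DTR (4.33%) and 178 were lower (4.70%), and the median log2 ratio was -0.04. The interval of the ratio of summed UMIs lay above 0 on the log2 scale for 151 of the 164 genes and below 0 for 143 of the 178.

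**Figure D2:**
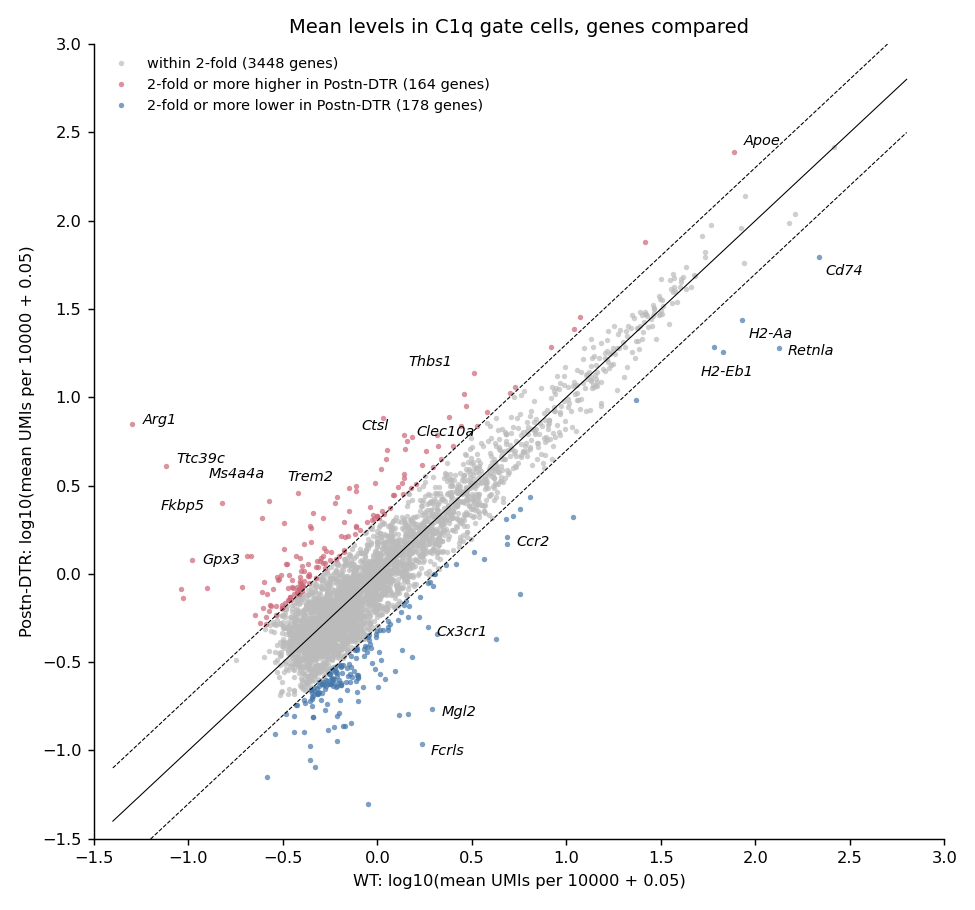
Mean level of each of the 3790 genes compared in WT members (horizontal axis) and *Postn*-DTR members (vertical axis), both as log10 of the mean UMIs per 10000 with 0.05 added. Each point is a gene, dashed lines mark 2-fold, and the class II genes *Cd74*, *H2-Aa* and *H2-Eb1* lie below the lower line at high levels whereas *Apoe* lies above the upper one.

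MHC class II genes were lower in *Postn*-DTR members. Of the 10 genes of the antigen presentation list that could be compared, 8 were lower, 0 were higher, and the median log2 ratio was -1.60. *Cd74* was at 216 UMIs per 10000 in WT members, against 62.2 in *Postn*-DTR members, and was detected in 122 and 88 of them. The class II α and β chains followed it. *H2-Aa* (ENSMUSG00000036594) was at 84.5 and 27.5, *H2-Ab1* at 60.1 and 19.2, and *H2-Eb1* at 67.1 and 18.0. The log2 ratios were -1.80 for *Cd74*, -1.62 for *H2-Aa*, -1.64 for *H2-Ab1* and -1.90 for *H2-Eb1*. On summed UMIs, in which deep cells weigh more, the ratio for *H2-Aa* was -1.20 (-1.27 to -1.14) and that for *Cd74* was -1.49 (-1.53 to -1.44).

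The genes that edit and induce class II stood on the same side. *H2-DMb1*, a chain of the peptide editor, was at 3.60 in WT and 1.17 in *Postn*-DTR members, with a log2 ratio of -1.58, although its reads may be shared with the near-identical *H2-DMb2*. *Ciita*, which encodes the class II coactivator, was at 0.73 and 0.16, detected in 46 WT and 8 *Postn*-DTR members, with a log2 ratio of -1.86. The 2 genes of the list within 2-fold encode costimulatory molecules. They were *Cd86*, with a log2 ratio of -0.05, and *Cd40*, with -0.60, and like *H2-DMb2* they were named after their values were seen.

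To show what the class II genes share at their start sites, the 150 bases before the start of 4 of them are printed from RefSeq promoter windows of the GRCm38.p6 assembly, 5′ to 3′ on the strand of the gene. Capitals mark, where they match on the strand of the gene, the letters of the Y box core, GATTGG, and of part of the X box, AACNGATG, while counts of promoters below take either strand and windows of 300 bases.
H2-Aa promoter, chr17:34287824-34287973, minus strand: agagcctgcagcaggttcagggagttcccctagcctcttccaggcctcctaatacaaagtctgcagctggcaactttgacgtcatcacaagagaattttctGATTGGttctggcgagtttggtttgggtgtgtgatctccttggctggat
H2-Eb1 promoter, chr17:34305717-34305866, plus strand: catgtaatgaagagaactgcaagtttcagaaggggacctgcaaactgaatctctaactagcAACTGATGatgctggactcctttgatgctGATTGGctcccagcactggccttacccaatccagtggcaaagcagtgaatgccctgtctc
H2-DMb1 promoter, chr17:34153041-34153190, plus strand: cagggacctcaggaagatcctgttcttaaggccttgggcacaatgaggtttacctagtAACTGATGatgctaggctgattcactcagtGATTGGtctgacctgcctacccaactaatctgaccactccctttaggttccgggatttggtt
H2-DMb2 promoter, chr17:34145099-34145248, plus strand: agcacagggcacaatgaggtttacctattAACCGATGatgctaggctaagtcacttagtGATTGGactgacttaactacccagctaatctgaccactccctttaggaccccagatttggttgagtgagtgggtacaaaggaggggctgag

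GATTGG began 49 bases before the start of *H2-Aa*, 60 before that of *H2-Eb1*, 62 before that of *H2-DMb1* and 91 before that of *H2-DMb2*. AACNGATG began 29 bases upstream of it in *H2-Eb1* and 30 bases upstream in both *H2-DMb1* and *H2-DMb2*, and was not matched in *H2-Aa*. *H2-Eb1* also holds GATTGG on the opposite strand, nearer to the start, which is left in lower case. Of the 11 listed genes 6 had a promoter in the table, and 5 of these 6 held GATTGG and 3 held AACNGATG. Among all 32851 promoters available 16.1% held GATTGG and 2.32% held AACNGATG. These matches are letters in a window and not measured binding.

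The difference in class II was one of many cells, not of a few. The summed level of *H2-Aa*, *H2-Ab1*, *H2-Eb1* and *Cd74* had a median over cells of 398 UMIs per 10000 in WT members, with a lower quartile of 109, and of 37.5 in *Postn*-DTR members, with a lower quartile of 3.38. Both libraries reached similar maxima, 1175 and 1096. The sum was under 10 in 6 of 125 WT members (4.80%, 1.78 to 10.2) and in 43 of 118 *Postn*-DTR members (36.4%, 27.8 to 45.8), with 5 and 17 cells between 5 and 20, near this limit. Among members with a *Lyve1* UMI, 5 of 63 WT cells and 30 of 59 *Postn*-DTR cells were under 10, and among members with a *Ccr2* UMI, 2 of 67 and 3 of 26. The mean sum was 569 in WT and 218 in *Postn*-DTR members with a *Ccr2* UMI, and 666 and 205 in members with no *Lyve1* UMI.

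Class II was lower still in the *Postn*-DTR members that held 1 of *Gata6*, *Alox15*, *Prg4* and *Saa3*. Their *H2-Aa* level was 8.68, against 39.1 in the 73 *Postn*-DTR members with none of these genes and 89.0 in the 110 such WT members. In WT the 15 members with 1 of these genes were likewise lower, at 51.5. Without members that held any of the 4 genes, the median log2 ratio of the list was -1.25. Of the members with 1 of these genes, 43 of 45 in *Postn*-DTR and 7 of 15 in WT held *Saa3*, and 2 and 6 held *Prg4*. The part that these members have in the difference was not tested further.

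**Figure D3:**
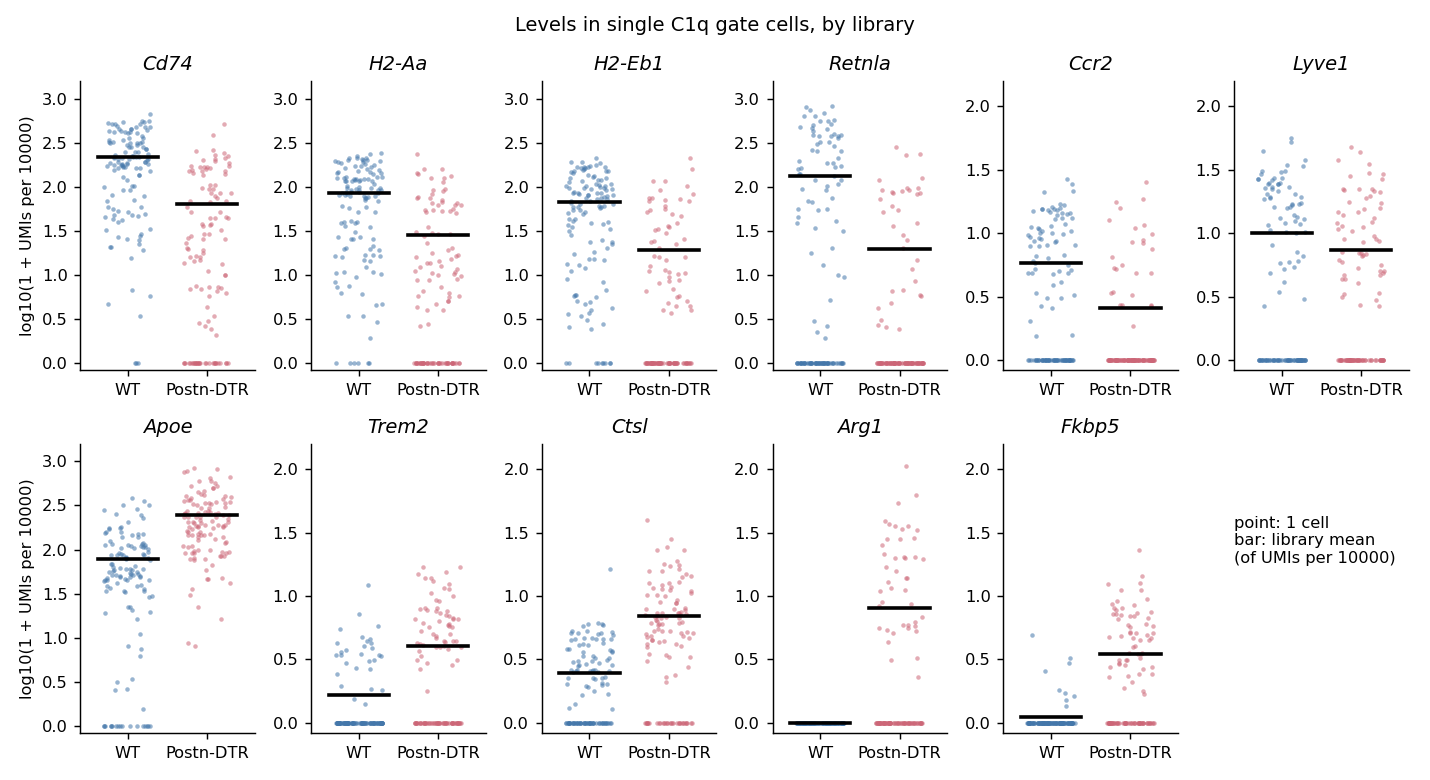
Level of 11 genes in single members of the WT and *Postn*-DTR libraries, as log10 of 1 plus UMIs per 10000 (vertical axis), 1 point per cell, with a bar at the library's mean. Class II genes, *Retnla* and *Ccr2* have more *Postn*-DTR cells at 0, *Arg1* is at 0 in every WT cell, and *Apoe* was detected in all 118 *Postn*-DTR cells.

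Genes that IL-4 and IL-13 induce in macrophages moved in both directions. Of 9 compared, 5 were higher in *Postn*-DTR and 2 were lower, with a median log2 ratio of 1.02. The lower ones were *Retnla* and *Mgl2*. *Retnla*, which encodes a secreted resistin-like protein, was at 133 UMIs per 10000 in WT, against 18.9 in *Postn*-DTR members, a log2 ratio of -2.81, and was detected in 53.6% (44.5 to 62.6) and 30.5% (22.4 to 39.7) of them. *Mgl2*, a galactose-type lectin, was at 1.90 and 0.12, a log2 ratio of -3.50, with UMIs in 47 WT and 5 *Postn*-DTR members. Among members with a *Lyve1* UMI, *Retnla* was detected in 50 of 63 WT cells and 20 of 59 *Postn*-DTR cells, and among those without in 17 of 62 and 16 of 59.

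The higher ones included *Arg1*, which encodes arginase. *Arg1* had 0 UMIs in the 125 WT members, which at 3 counts of 125 allows up to 2.40% of cells with a UMI and sets no limit on cells that express the gene, and 299 UMIs in 44 of the 118 *Postn*-DTR members (37.3%, 28.6 to 46.7). Against a floor of 3 UMIs over the WT members, it was at least 203-fold higher relative to all UMIs. Cells with a *Cd3e* UMI gave 1.44% and 1.99%, so the share in *Postn*-DTR members was above that background and the share in WT members was not. *Arg1* was detected in 28 of 59 *Postn*-DTR members with a *Lyve1* UMI and in 16 of 59 without. It was detected in 26 of the 45 *Postn*-DTR members with 1 *Gata6*-type gene (57.8%), which lie at the edge of the gate, and in 18 of the 73 with none (24.7%). *Clec10a*, a lectin encoded beside *Mgl2*, went from 1.39 in WT to 5.59 in *Postn*-DTR members, opposite to its neighbour, although the genes are close copies and reads may be shared between them. *Mrc1* was at 3.32 and 6.80, a log2 ratio of 1.02, and was no longer past 2-fold without members that held a *Gata6*-type gene (0.998), with 0.5 added (0.936), with other totals per cell or in members with a *Lyve1* UMI (0.993). *Tgm2*, a transglutaminase, was at 0.27 and 1.32. *Chil3*, a chitinase-like secreted protein, was at 0.39 and 1.47, but 1 cell held 80.8% of its *Postn*-DTR UMIs its WT UMIs came from 2 cells, and its log2 ratio of 1.77 was 0.29 without members that held a *Gata6*-type gene.

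Genes of lipid-associated macrophages, which take up and break down lipid and debris, were higher in *Postn*-DTR. Of 12 compared, 7 were higher and 0 lower, and the median log2 ratio was 1.15. *Apoe*, the apolipoprotein that carries cholesterol out of macrophages, was at 77.4 UMIs per 10000 in WT, against 244 in *Postn*-DTR members, a log2 ratio of 1.66, and its median over cells went from 54.9 to 202. *Trem2*, the lipid receptor that names this state, was at 0.65 and 3.01, a log2 ratio of 2.12, and was found in 23.2% (16.1 to 31.6) and 50% (40.7 to 59.3) of members. Thinned to 2000 UMIs, the *Trem2* shares were 11% and 47.1%. *Fabp5*, a fatty acid carrier, was at 1.35 and 5.03, where 1 *Postn*-DTR cell held 25.8%, and *Cd63*, a tetraspanin of late endosomes, at 2.02 and 6.06. *Cd9* and *Fabp4* were also among the 7 higher genes but were found in few members. *Cd9* was detected in 10 WT and 13 *Postn*-DTR members, and *Fabp4* in 5 and 21. The *Cd9* log2 ratio of 1.30 was 0.23 on summed UMIs, and *Cd9* was not past 2-fold with 0.5 added. *Gpnmb* and *Spp1*, genes of the same list, had too few UMIs to compare.

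Of 20 genes of the lysosome and its proteases, 4 were higher and 0 were lower. Another 11 lay within 2-fold with a log2 ratio above 0, and the median log2 ratio was 0.35. *Ctsl*, which encodes cathepsin L, was at 1.48 and 5.92, a log2 ratio of 1.96. *Ctsd*, cathepsin D, was at 8.27 and 19.1, *Lgmn*, the asparagine endopeptidase legumain, at 5.32 and 11.4, and *Npc1*, a transporter of lysosomal cholesterol, at 0.26 and 0.62. *Ctsb*, *Psap* and *Grn* were within 2-fold, with log2 ratios of 0.51, 0.38 and 0.86. The efferocytosis and cholesterol efflux list gave 3 higher and 1 lower of 11, with a median of -0.02. Its higher genes beside *Apoe* were the engulfment receptor *Mertk*, at 0.56 and 1.17 with a log2 ratio of 1.01 that was 0.75 on summed UMIs, and the cholesterol transporter *Abcg1*, at 0.30 and 0.79. *Nr1h3*, which encodes the oxysterol receptor LXRα, was the lower one, at 0.92 and 0.24.

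Among secreted signals, 5 of 17 chemokines were higher and 1 was lower, with a median log2 ratio of 0.59. *Ccl12* was at 0.20 in WT and 2.02 in *Postn*-DTR members, *Ccl3* at 0.92 and 3.2, *Ccl4* at 2.33 and 7.67, *Ccl2* at 4.95 and 10.5 and *Ccl8* at 2.03 and 5.23. These ligands attract monocytes and other leukocytes through CCR2 and related receptors. *Ccl2*, with a log2 ratio of 1.07, was not past 2-fold on summed UMIs (0.88), in thinned members (0.86) or without members that held a *Gata6*-type gene (0.59). For *Ccl8*, with a log2 ratio of 1.34, 1 cell held 52.0% of the *Postn*-DTR UMIs, and the ratio was 0.39 in members with a *Lyve1* UMI. In members with a *Ccr2* UMI the order was opposite for both, with log2 ratios of -0.31 for *Ccl2* and -1.30 for *Ccl8*. *Cxcl10*, an interferon-induced ligand of CXCR3, was lower, at 0.67 and 0.09, with 58.9% of its WT UMIs in 1 cell. *Cxcl13*, the ligand that draws B cells into follicles and milky spots, was at 3.16 and 3.17, in 18 and 13 members.

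Of 16 cytokines and growth factors, 3 were higher and 1 was lower, with a median log2 ratio of 0.06. *Osm*, which encodes oncostatin M, was at 0.72 and 3.1, a log2 ratio of 2.03. *Hbegf*, a growth factor that is also the receptor for DT in other species, was at 0.34 and 1.18, and the inserted receptor gene was not analysed here. *Ecm1*, a secreted matrix protein, was at 1.08 and 4.99, and *Pdgfb* was at 0.53 and 0.20. *Thbs1*, a matricellular protein counted among the monocyte genes, was at 3.18 and 13.6, a log2 ratio of 2.08, and was detected in 37 WT and 63 *Postn*-DTR members.

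Glucocorticoid-induced genes gave 4 higher and 0 lower of 12, with a median log2 ratio of 0.44. *Fkbp5*, a cochaperone that limits the glucocorticoid receptor, was at 0.10 in WT and 2.47 in *Postn*-DTR members, a log2 ratio of 4.06, with UMIs in 9 of 125 and 61 of 118 cells. The metallothioneins *Mt1* and *Mt2*, which bind zinc and copper, were at 11.7 and 28.4 and at 0.22 and 2.53. *Klf9*, a transcription factor, was at 1.23 and 3.07, and its log2 ratio of 1.28 was 0.63 in members with a *Lyve1* UMI and 0.88 with the stricter gate. *Dusp1*, *Nfkbia* and *Cd163*, which glucocorticoids also raise, had log2 ratios of -0.05, -0.37 and 0.14. *Fkbp5* also differed between the libraries in cells with a *Cd3e* UMI, at 0.29 and 0.87 UMIs per 10000, and the differences in the members and in these cells were not compared by a test.

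Complement and Fc receptor genes, the best known features of C1q macrophages, lay mostly within 2-fold. Of 10 complement genes outside the gate 0 were past 2-fold in either direction, the background being 4.33% higher and 4.70% lower. Of these 10 genes 7 had a log2 ratio above 0, and the median log2 ratio was 0.61. *C3*, the central component, was at 2.29 and 4.22, *C4b* at 1.92 and 3.48, and the anaphylatoxin receptor *C5ar1* at 3.48 and 5.48. Of 6 Fc receptor genes, which bind antibody, *Fcgr4* was higher, at 0.66 and 2.22, and *Fcgr1*, *Fcgr2b*, *Fcgr3*, *Fcer1g* and *Fcgrt* had log2 ratios between 0.05 and 0.59, with a median over the 6 genes of 0.47. Of 16 scavenger and endocytic receptors 4 were higher and 1, *Mgl2*, was lower, with a median of 0.13. Beside *Mrc1* and *Clec10a* these were *Marco*, at 0.27 and 1.90 but in only 4 and 10 members, and *Cd5l*, at 0.28 and 1.09. *Lyve1* itself was at 9.04 and 6.31, *Folr2* at 7.32 and 4.70 and *Fcna* at 16.4 and 21.1, all within 2-fold.

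Of 9 genes of iron and heme handling, *Hmox1*, which encodes heme oxygenase, was higher at 1.34 and 6.08, where 1 *Postn*-DTR cell held 47.4% and the log2 ratio of 2.14 was 0.87 with the stricter gate, and *Hpgd* was lower. The median log2 ratio was 0.11, and the ferritin chains *Fth1* and *Ftl1* were at 87.7 and 138 and at 83.7 and 90.3. Of 11 receptors, *Csf2rb* and *Il4ra*, which pass on signals of GM-CSF and of IL-4 and IL-13, were higher, at 1.11 and 2.32 and at 0.26 and 0.94, although *Csf2rb*, with a log2 ratio of 1.03, was at 0.90 on summed UMIs, with a median of 0.06. Of 4 genes of retinoid metabolism and response that could be compared, *Tgm2* was higher, and *Rara*, *Rxra* and *Dhrs3* had log2 ratios of 0.60, -0.11 and 0.09, with a median of 0.34.

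Among macrophage transcription factors, *Mef2c* and *Nr1h3* were lower. *Mef2c* was at 1.08 and 0.49, a log2 ratio of -1.06 that was -0.83 on summed UMIs. *Cebpb* had a log2 ratio of 0.51 and *Klf2* of -0.29. Of 15 immediate early and heat shock genes, which rise when tissue is digested, only *Ier3* was past 2-fold, at 2.88 and 8.87, with a median of -0.02, and *Fos*, *Junb* and *Hspa8* had log2 ratios of -0.30, 0.03 and -0.02.

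Monocyte genes went in both directions, with 4 higher and 3 lower of 12 and a median log2 ratio of -0.20. *Ccr2* was at 4.80 in WT and 1.57 in *Postn*-DTR members, a log2 ratio of -1.59, and *Cx3cr1*, the receptor of fractalkine, at 1.79 and 0.45. *Plac8* was at 0.91 and 2.0 and *Hp*, which encodes haptoglobin, at 0.25 and 0.87. Of 7 cell cycle genes 4 were lower and 0 higher, with a median of -1.5. *Mki67*, a marker of dividing cells, was found in 8 WT and 3 *Postn*-DTR members and *Top2a* in 8 and 5. *Ube2c* had 153 UMIs in 12 WT members and 0 in the *Postn*-DTR members, which makes it at least 25.1-fold lower against a floor of 3 UMIs over the *Postn*-DTR members. A single WT cell held 34.6% of the *Ube2c* UMIs. Interferon γ-induced genes gave 2 lower of 6 and a median of -0.67, *Gbp2* at 0.56 and 0.18 and *Gbp3* at 0.72 and 0.20. The median of 6 type I interferon-stimulated genes was also below 0, at -0.45. Of these 0 were past 2-fold, which is near the background of 4.33% higher and 4.70% lower. Of the 4 genes of *Gata6*-type macrophages compared, *Arg1* was higher and *Icam2* was lower at 0.50 and 0.08, with a median of 0.04.

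**Figure D4:**
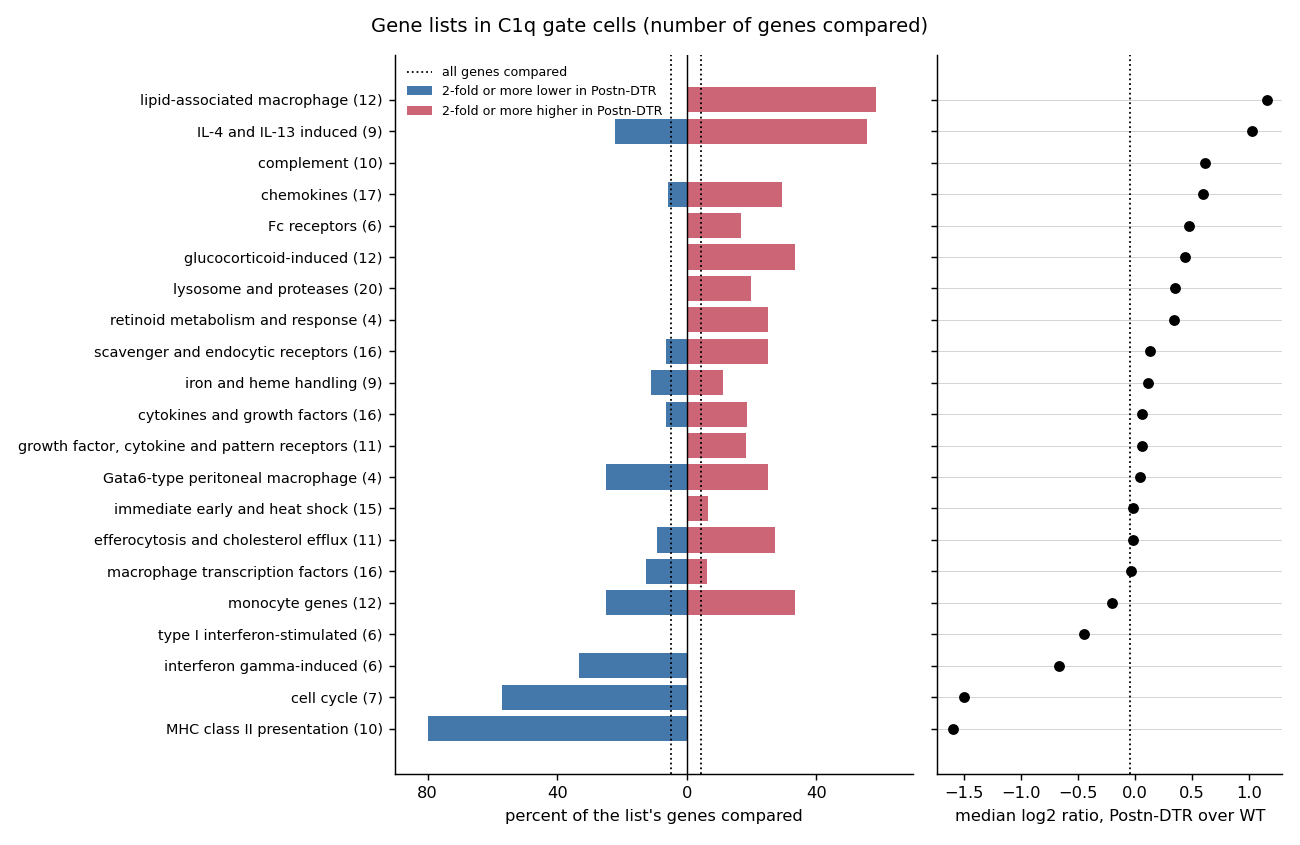
Gene lists in C1q gate cells, with the percent of each list's compared genes that were 2-fold or more lower (left of 0) or higher (right of 0) in *Postn*-DTR and, in the right panel, the list's median log2 ratio. Dotted lines give the same over all 3790 genes, and the class II list (8 of 10 lower) and the lipid-associated list (7 of 12 higher) stand at the ends.

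The largest differences over all genes, leaving out immunoglobulin and T cell receptor genes and genes for which 1 cell held over 25% of the UMIs, named further genes outside these lists. *Ttc39c* was at 0.03 in WT and 4.01 in *Postn*-DTR members, from 4 UMIs in 4 cells and 156 UMIs in 59 cells. *Gpx3*, an extracellular glutathione peroxidase, was at 0.05 and 1.14. *Cd300lf*, an inhibitory receptor for lipids, was at 0.04 and 0.77, and *Ms4a4a*, a membrane protein of macrophages, at 0.33 and 2.83, in 18 and 55 members. *Lrg1* was at 0.155 and 1.22 and the metalloprotease *Adam8* at 0.075 and 0.778. On the other side, *Fcrls*, an Fc receptor-like gene also known from microglia, was at 1.67 and 0.06, in 41 and 3 members. *Pla2g2d*, a secreted phospholipase, was at 1.40 and 0.11, but in only 11 and 4 members. The long noncoding RNA *Gm34084* was at 1.26 and 0.11, *Pilra* at 1.47 and 0.29, *Adgre4* at 0.96 and 0.18, *Dnase1l3* at 1.18 and 0.23 and *Slamf8* at 0.56 and 0.06.

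Differences were also taken within cells of the same marker. In members with a *Lyve1* UMI, the log2 ratio was -2.02 for *Cd74*, -1.80 for *H2-Aa*, 1.36 for *Apoe*, 1.92 for *Trem2*, 1.86 for *Ctsl* and 4.44 for *Fkbp5*. In members with no *Lyve1* UMI these were -1.74, -1.58, 2.38, 2.65, 2.10 and 3.76. In members with a *Ccr2* UMI (67 and 26 cells) they were -1.42, -1.27, 1.47, 1.99, 1.96 and 4.21. For *Retnla* the log2 ratio was -3.84 in members with a *Lyve1* UMI, -1.75 in those without and -1.45 in those with a *Ccr2* UMI. In members with neither marker the order was opposite, with 0 *Retnla* UMIs in 12 WT cells and 153 UMIs in 6 of 38 *Postn*-DTR cells, and in members with both it was at 189 in 17 WT cells and 1.72 in 5 *Postn*-DTR cells. Of the 75 named genes past 2-fold, 37 could be compared in members with a *Lyve1* UMI and all 37 had the same sign there, and 62 could be compared in members with none of *Gata6*, *Alox15*, *Prg4* and *Saa3* and all 62 had the same sign.

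**Figure D5:**
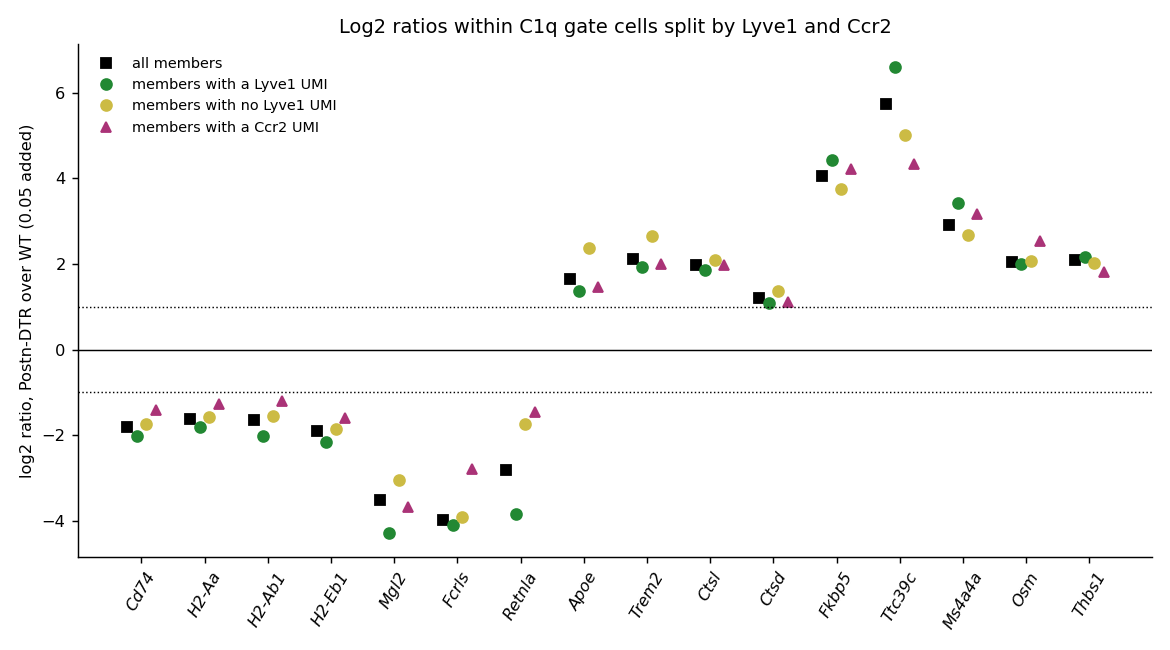
Log2 ratio of *Postn*-DTR over WT levels (vertical axis, 0.05 added) for 16 genes in all members and in members with a *Lyve1* UMI, with no *Lyve1* UMI and with a *Ccr2* UMI. Dotted lines mark 2-fold, and each of the 16 genes keeps its side of 0 in every one of these sets.

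The *Gata6*-type peritoneal macrophages, cells that met the gate except for 2 or more of *Gata6*, *Alox15*, *Prg4* and *Saa3*, were the cells most like the members. There were 30 in WT, or 0.346% (0.233 to 0.493), and 113 in *Postn*-DTR, or 1.97% (1.63 to 2.36). These shares depend on *Saa3*, a gene of the gate that itself differed between the libraries. It was at 0.26 in WT and 7.61 in *Postn*-DTR over all cells other than the members. Of the *Gata6*-type cells, 24 of 30 and 111 of 113 held it. How far the shares follow from *Saa3* was not tested. The differences between these gates depended on the library. *Apoe* was at 77.4 in WT members and 253 in WT *Gata6*-type cells, but at 244 and 244 in *Postn*-DTR. Class II was higher in members in both libraries, with *Cd74* at 216 and 44.3 in WT and at 62.2 and 7.13 in *Postn*-DTR, and the *Gata6*-type cells thus also had less of it in *Postn*-DTR. *Retnla* was at 31.3 and 1.18 in the WT and *Postn*-DTR *Gata6*-type cells, and *Fkbp5* at 0.04 and 1.88. *Arg1* was detected in 7 of 30 and 101 of 113 of them. *Trem2* was at 0.80 and 0.48 in *Gata6*-type cells against 0.65 and 3.01 in members, an opposite order, and *Hmox1* was at 1.27 and 1.40 against 1.34 and 6.08. *Ccl8* was at 0.00 and 0.14 in *Gata6*-type cells and at 2.03 and 5.23 in members, and *Ccl12* at 0.00 and 0.13 and at 0.20 and 2.02. With 1 library per group, these differences of differences were not tested.

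Markers of other cell types were measured beside these results. *Igkc*, an immunoglobulin light chain gene, was found in 40 of 125 WT and 79 of 118 *Postn*-DTR members, at a level of 1.02 and 7.57. The 5 plasma cell markers summed to 1.01 and 2.90, with *Eaf2* at 0 in both libraries. Neutrophil markers summed to 9.99 and 1.28, and 1 WT cell held 99.1% of the WT UMIs, without which the sum was 0.354. T cell and NK cell markers summed to 0.107 and 0.0892 in WT and had 0 UMIs in *Postn*-DTR, and erythroid markers had 0 UMIs in both. B cell markers summed to 0.580 and 0.332, fibroblast markers to 1.35 and 2.5, type 2 dendritic cell markers, mostly *Clec10a*, to 1.76 and 5.78, and monocyte markers to 6.64 and 5.87. *Gata6*-type markers, 2 of which remained at 0 in each library, summed to 1.59 and 28.4, and in *Postn*-DTR nearly all of it was *Saa3*, which was at 0.26 and 7.61 in all other cells. The source of this RNA and its part in the differences above were not tested. In all other cells of the libraries *Cd74* was at 107 and 56.2, lower in *Postn*-DTR as in the members, and *Arg1* was at 0.15 and 0.54, against 0 and 7.0 in members.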

How the data were processed

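The authors prepared droplet libraries of single-cell suspensions of the omentum, 1 per group, each from pooled mice, and no sort is stated. The study picked out leukocytes in its analysis, whereas the cells of the libraries counted here were not limited to leukocytes. The labels name a 5′ kit and the study's methods a 3′ kit, and the Cell Ranger version is 6.0.0 in the submitters' processing notes, with mm10, and differs in the methods. The authors deposited natural log values, the log of 1 plus UMIs per 10000 UMIs of the cell, rounded. The features table of identifiers carried 19960 genes, of which 19950 identifiers were in the annotation, and 1078 symbols were filled in from it.

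Values were brought back to the linear scale. UMIs recovered from the steps were whole within 0.1 for 99.96% of values in WT and 99.90% in *Postn*-DTR. Cells with 200 to 7500 detected genes were gated as described, with python 3.11.15, numpy 2.4.6, scipy 1.17.1, pandas 2.3.3 and scanpy 1.11.5, and figures were drawn with matplotlib 3.10.9. Doublets were called with Scrublet and kept. Levels were means over members, and log2 ratios were taken with 0.05 added. Genes with fewer than 50 UMIs over both libraries or a UMI in fewer than 10 members, V, D and J segments and genes of the gate were not compared. Intervals were exact for shares (Clopper-Pearson), exact conditional binomial for summed UMIs and Katz log intervals for ratios of shares, all at 95%, and cover counting error only. A count of 0 was given a floor of 3 UMIs over the group. The count step was tested on simulated data. With 1 library per group no p-value was computed.

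The text names the genes of the gate and of the cell type, up to 6 genes per list, those past 2-fold first by size and then by level, and the 10 highest and 10 lowest log2 ratios among genes in which no cell held over 25% of the UMIs, leaving out immunoglobulin and T cell receptor genes. Other genes were named after their values were seen. The members and lists were chosen with earlier results of these data known. Alternatives were the amount added, the filter, summed UMIs, centring, other totals per cell, thinning to 2000 UMIs, filters on cells, the denominator and the gate. Leaving out members with any *Gata6*-type gene, members without a *Lyve1* UMI, barcodes found in both libraries or each gene's top cell was added after seeing the data. The files held 0 per-sample columns that were not used. Promoter sequences came from RefSeq on GRCm38.p6. Some items are not reported here.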

Additional observations from a re-analysis of the deposited data

How the results depend on the processing

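The direction of all 75 named genes past 2-fold was kept under each alternative in which they could be compared. The call was kept for 75 with 0.01 added, 52 with 0.5 added, 69 on summed UMIs, 74 without immunoglobulin, mitochondrial and ribosomal protein genes in the totals, 42 of 48 with the stricter gate, 57 of 62 without any *Gata6*-type gene, 31 of 35 thinned to 2000 UMIs and 32 of 37 with a *Lyve1* UMI. *Mertk* was lost without barcodes found in both libraries. Over all genes compared the calls were kept less often, with 123 of the 164 higher and 110 of the 178 lower calls shared on summed UMIs. The causes of these changes were not tested. No paired analysis was possible because each group has 1 library and no test was run. With 1 library per group, no value separates the effect of the receptor from that of the pool of mice or the run, and at a median of 3309 UMIs in *Postn*-DTR members genes of low level could not be compared.

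The share of members was 1.77% in WT and 5.62% in *Postn*-DTR outside plasma cell and neutrophil gates (ratio 3.17), 0.714% and 0.680% with the stricter gate (ratio 0.952, reversed), and in *Postn*-DTR 1.29% among cells with a *Ptprc* UMI (ratio 1.02), 1.40% on thinned cells and 1.27% without any *Gata6*-type gene (ratio 1.0). Genes higher and lower numbered 63 and 31 with 0.5 added, 46 and 33 with at least 200 UMIs, 680 and 923 with no filter, 59 and 33 thinned, and 74 and 54 with a *Lyve1* UMI, and 103 were lower with the stricter gate. By construction the stricter filter, the thinned cells, the stricter gate and the *Lyve1* members left fewer genes to compare (981, 1105, 2054 and 1448), and no filter left more (13073).

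List medians of the log2 ratio moved as follows. With 0.5 added, lipid-associated genes were at 0.65 and class II genes at -1.21. On summed UMIs, class II genes were at -1.29 and Fc receptors at 0.74. With at least 200 UMIs, efferocytosis genes were at 0.82, *Gata6*-type genes at 3.57, receptors at -0.47 and glucocorticoid-induced genes at -0.052. With no filter, monocyte genes were at 0.25. Thinned, efferocytosis genes were at 0.92, lipid-associated genes at 1.69, cytokines at 0.64 and lysosomal genes at 0.58. With the stricter gate, efferocytosis genes were at 1.40, chemokines at 1.33, cytokines at 0.79, *Gata6*-type genes at 2.57 and interferon γ-induced genes at 0.074. Without any *Gata6*-type gene, lipid-associated genes were at 0.86, class II genes at -1.25 and Fc receptors at 0.70. With a *Lyve1* UMI, class II genes were at -2.01, cytokines at 0.63, Fc receptors at 0.10 and IL-4 and IL-13 induced genes at 0.58. Without each gene's top cell, lipid-associated genes were at 1.55. The other 286 list medians moved by less than the counting error of a typical gene of the list. This was taken from the intervals for summed UMIs and is not the counting error of the median itself.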
